A study of Mus musculus with 20 samples.

Results

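The globins and erythroid genes described here are 9 of the 45705 genes in the table, chosen by gene name. They are the adult alpha globins Hba-a1 and Hba-a2, the adult beta globins Hbb-bs and Hbb-bt, the embryonic globins Hba-x, Hbb-y and Hbb-bh1, and the erythroid genes Alas2 and Slc4a1. All 9 were found, each under 1 Ensembl identifier. The libraries were made from the periventricular zone of Swiss Webster mice at postnatal day 5, with no transgene, treatment or deletion in any group. All pups of a litter, males and females together, were pooled and sorted by CD133, LeX (CD15), CD140a and NG2. The 5 populations were the neural stem cells (NSC, sorted as CD133+ LeX+ without NG2 or CD140a) and 4 kinds of progenitor, named BNAP/GRP1, GRP2/MP3, GRP3 and PFMP as in the labels. Each population had 4 libraries, 1 from each of batches 1 to 4, and a library is called by both (GRP3 2 for GRP3 in batch 2). A batch holds 5 populations that share a number, and the litter, dissection, sort and library preparation within it cannot be told apart. Dead cells were gated out with DAPI, and no antibody against blood cells is named in the sorting panel. Values are RPKM, reads scaled by the authors to gene length and library size.

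Hemoglobin is a tetramer of alpha-type and beta-type globin chains, each holding a heme, and carries oxygen in red blood cells. The genes of each type lie in a cluster. Those used by the first, yolk sac-derived red cells are silenced before birth while the adult genes take over. Alas2 makes the enzyme of the first and rate-limiting step of heme synthesis in red cell precursors, and Slc4a1 encodes band 3, the main anion exchanger and membrane anchor of the red cell. Mature mammalian red cells have lost the nucleus, and the youngest of them, the reticulocytes, still hold globin mRNA. Neural cells are not known as a main source of hemoglobin, so these genes serve in brain samples as a measure of red cell RNA.

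The adult alpha globins lie on chromosome 11 of GRCm38, Hba-a1 at chr11:32283511-32284465 and Hba-a2 at chr11:32296489-32297298, both on the plus strand. The embryonic alpha-type gene Hba-x, which encodes the zeta chain, lies before them at chr11:32276400-32278116. The adult beta globins lie on the minus strand of chromosome 7, Hbb-bs at chr7:103826534-103828096 and Hbb-bt at chr7:103812524-103813996. The embryonic beta-type genes Hbb-y and Hbb-bh1 lie in the same cluster, at chr7:103851749-103853216 and chr7:103841637-103843164. Each of these genes has 3 exons in GENCODE vM21, with a coding sequence of 429 bases in the alpha family and 444 in the beta family. Alas2 lies at chrX:150547375-150570638 with 11 exons, and Slc4a1 at chr11:102348824-102366203 with 20.

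How far reads can tell these genes apart is set by their sequences, so coding bases 31 to 90 of the GRCm38 genes are shown, with capitals marking each base that differs from the adult gene of the same family.
Hba-a1: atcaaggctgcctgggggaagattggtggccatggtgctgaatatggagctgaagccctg
Hba-x: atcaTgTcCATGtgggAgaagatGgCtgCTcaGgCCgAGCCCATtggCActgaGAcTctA
Hbb-bs: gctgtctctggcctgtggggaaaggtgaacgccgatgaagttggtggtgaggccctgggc
Hbb-y: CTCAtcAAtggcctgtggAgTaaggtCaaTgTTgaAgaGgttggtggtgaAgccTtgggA
Hbb-bh1: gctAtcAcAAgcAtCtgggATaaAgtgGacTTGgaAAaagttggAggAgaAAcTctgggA
Over this stretch Hba-x differed from Hba-a1 at 27 bases, Hbb-y from Hbb-bs at 17 and Hbb-bh1 from Hbb-bs at 21. Hba-a2 differed from Hba-a1 at 0 bases of it and Hbb-bt from Hbb-bs at 0. Over the whole coding sequence, Hba-a1 and Hba-a2 shared 428 of 429 bases and Hbb-bs and Hbb-bt 443 of 444. Hba-a1 shared 266 of 429 bases with Hba-x, and Hbb-bs shared 330 of 444 with Hbb-y and 329 of 444 with Hbb-bh1. The reads were 75 bases long. Of the 75-base stretches of the Hba-a2 transcript, 81.0% also occur in Hba-a1, and of those of Hbb-bs, 64.3% also occur in Hbb-bt. No such stretch was shared between an adult and an embryonic gene (0 in each combination). The split of the signal between Hba-a1 and Hba-a2, and between Hbb-bs and Hbb-bt, is therefore uncertain. The sum of each pair depends on that split only through the lengths of the copies, and the embryonic values do not depend on it.

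The letters before the start of the genes are given because the adult globins and Alas2 were all higher in batch 3. The 120 bases before the RefSeq start are shown for the 7 members that the RefSeq table held, on GRCm38.p6 and in the direction of the gene. Capitals mark the TATA box (spelled TATAA, with ATAAAA as its other form), the box spelled CCAAT, the box spelled CACCC, and the GATA motif (spelled AGATAA, with TGATAA as its other form). Each was searched on both strands, so that a capital run can be the reverse complement of its motif or 2 overlapping motifs.
Hba-a1, chr11:32283552-32283671, plus strand: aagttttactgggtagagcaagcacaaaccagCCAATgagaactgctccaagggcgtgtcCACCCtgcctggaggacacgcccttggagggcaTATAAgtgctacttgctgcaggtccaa
Hba-a2, chr11:32296372-32296491, plus strand: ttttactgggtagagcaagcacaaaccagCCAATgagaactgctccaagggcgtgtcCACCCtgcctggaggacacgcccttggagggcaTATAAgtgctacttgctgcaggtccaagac
Hbb-bs, chr7:103827929-103828048, minus strand: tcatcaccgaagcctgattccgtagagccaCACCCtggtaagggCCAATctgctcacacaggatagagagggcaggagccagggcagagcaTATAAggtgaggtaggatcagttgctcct
Hbb-bt, chr7:103813924-103814043, minus strand: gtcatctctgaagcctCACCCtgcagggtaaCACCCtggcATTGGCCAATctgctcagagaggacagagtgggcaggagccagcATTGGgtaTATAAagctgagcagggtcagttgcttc
Hba-x, chr11:32276480-32276599, plus strand: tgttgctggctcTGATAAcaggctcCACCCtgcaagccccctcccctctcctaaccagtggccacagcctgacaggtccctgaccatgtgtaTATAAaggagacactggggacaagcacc
Hbb-y, chr7:103853208-103853327, minus strand: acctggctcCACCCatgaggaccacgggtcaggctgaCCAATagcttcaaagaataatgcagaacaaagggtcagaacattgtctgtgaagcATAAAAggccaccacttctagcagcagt
Alas2, chrX:150547297-150547416, plus strand: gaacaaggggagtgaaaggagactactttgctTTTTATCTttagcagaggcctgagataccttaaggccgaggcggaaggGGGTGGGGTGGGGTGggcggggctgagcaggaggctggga
The 4 adult globins each held a TATA box 27 to 30 bases before the start and at least 1 CCAAT and 1 CACCC. Hba-x had the TATA box at 28 bases and the GATA motif at 108, with no CCAAT among the 250 bases searched. Hbb-y, also embryonic, had the TATA box at 28 bases, CCAAT at 83, CACCC at 111 and the GATA motif at 162. The GATA motif also stood at 183 bases in Hba-a1, 186 in Hba-a2, 210 in Hbb-bs and 86 in Alas2, and was absent from Hbb-bt. In Alas2 the CACCC letters stood on the other strand, at 40, 35 and 30 bases before the start, and no CCAAT was found. These letters thus did not separate the genes higher in batch 3 from the embryonic genes. Of 32851 mouse promoters, 31.1% held the TATA letters within 250 bases before the start, 33.8% CCAAT, 52% CACCC and 16.6% the GATA letters. A match of letters is a description of the sequence and not a binding site.

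Before the results, 2 sets of libraries have to be set apart. The 5 libraries of batch 3 were nearly alike whatever their population. Over genes with 1 RPKM or more in at least 4 libraries, r of log2(RPKM + 1) between them lay between 0.934 and 0.972. A gene at 10 RPKM or more in both libraries differed by a median of 0.0999 to 0.161 on the log2 scale. The corresponding medians within batches 1, 2 and 4 were 0.720, 0.916 and 0.666. The lymphocyte markers of batch 3 summed to between 480 and 533 RPKM, against at most 74.0 in batch 4. The oligodendrocyte precursor markers of batch 3 summed to between 2.72 and 14.7. Within that range GRP3 3 and PFMP 3, at 13.8 and 14.7, stood above NSC 3, BNAP/GRP1 3 and GRP2/MP3 3, at 2.72, 3.59 and 2.91. The libraries of batch 4 held 24102 to 39689 genes above 0, and in 4 of the 5 the median gene lay between 0.977 and 8.30 RPKM, highest in BNAP/GRP1 4, whose depth was 0.0395 of that of BNAP/GRP1 1. In batches 1 to 3 the median gene lay at 0.237 RPKM or less. The tests of GRP2/MP3 against NSC are given with and without batch 3, and other results with it unless stated.

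Adult alpha globins were highest in the libraries of batch 3 and, outside it, in GRP2/MP3 of batches 1 and 4 and BNAP/GRP1 of batch 2. In batch 1, Hba-a1 stood at 50.5 RPKM in NSC, 4373 in GRP2/MP3, 85.3 in BNAP/GRP1, 29.8 in PFMP and 49.7 in GRP3. In batch 2 it stood at 99.8 in NSC, 258 in GRP2/MP3, 613 in BNAP/GRP1, 84.6 in PFMP and 13.5 in GRP3. GRP2/MP3 held the highest value of batch 1, and BNAP/GRP1 that of batch 2. In batch 3, Hba-a1 reached 48715 in NSC, 52112 in GRP2/MP3, 51882 in BNAP/GRP1, 53106 in PFMP and 52339 in GRP3. In batch 4 it lay at 4.61 in NSC, 1519 in GRP2/MP3, 43.3 in BNAP/GRP1, 159 in PFMP and 53.6 in GRP3. The 5 libraries of batch 3 did not overlap the other 15, and over the 4 batches the ranges of the 5 populations overlapped.

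Hba-a2, the neighbouring adult alpha gene, followed the same libraries. In batch 1, Hba-a2 was at 145 RPKM in NSC, 12157 in GRP2/MP3, 267 in BNAP/GRP1, 50.2 in PFMP and 114 in GRP3. In batch 2 its values were 225 in NSC, 1025 in GRP2/MP3, 1560 in BNAP/GRP1, 290 in PFMP and 37.9 in GRP3. As for Hba-a1, the highest library was GRP2/MP3 in batch 1 and BNAP/GRP1 in batch 2. In batch 3, Hba-a2 rose to 69258 in NSC, 77175 in GRP2/MP3, 66045 in BNAP/GRP1, 74584 in PFMP and 73240 in GRP3. In batch 4 it was listed at 0 in NSC and stood at 753 in GRP2/MP3, 24.6 in BNAP/GRP1, 75.5 in PFMP and 28.3 in GRP3. NSC 4 was the only library in which any of the 4 adult globins was listed at 0.

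The adult beta globins gave the same picture with GRP2/MP3 in front more often. In batch 1, Hbb-bs stood at 268 RPKM in NSC, 6345 in GRP2/MP3, 269 in BNAP/GRP1, 68.1 in PFMP and 104 in GRP3. In batch 2 the gene lay at 245 in NSC, 1478 in GRP2/MP3, 1078 in BNAP/GRP1, 213 in PFMP and 24.7 in GRP3. GRP3 or PFMP held the lowest value in both batches. In batch 3, Hbb-bs reached 91652 in NSC, 103020 in GRP2/MP3, 98873 in BNAP/GRP1, 102862 in PFMP and 100178 in GRP3, and it was the second most abundant gene of each of these libraries. Batch 4 gave 3.05 in NSC, 438 in GRP2/MP3, 19.5 in BNAP/GRP1, 47.8 in PFMP and 15.1 in GRP3. GRP2/MP3 was the highest library for Hbb-bs in 4 of 4 batches.

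Hbb-bt, the other adult beta gene, was less abundant than Hbb-bs in batch 3. In batch 1, Hbb-bt stood at 229 RPKM in NSC, 3636 in GRP2/MP3, 241 in BNAP/GRP1, 81.0 in PFMP and 61.8 in GRP3. In batch 2 it was at 80.2 in NSC, 1790 in GRP2/MP3, 467 in BNAP/GRP1, 165 in PFMP and 22.4 in GRP3. GRP2/MP3 was the highest library in both. In batch 3, Hbb-bt reached 18613 in NSC, 20119 in GRP2/MP3, 19846 in BNAP/GRP1, 20921 in PFMP and 20214 in GRP3. In batch 4 the values were 1.75 in NSC, 39.6 in GRP2/MP3, 8.65 in BNAP/GRP1, 4.05 in PFMP and 4.00 in GRP3. GRP2/MP3 was the highest library for Hbb-bt in 3 of 4 batches and for Hba-a2 in 3, and for Hba-a1 in 2.

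**Figure D1:**
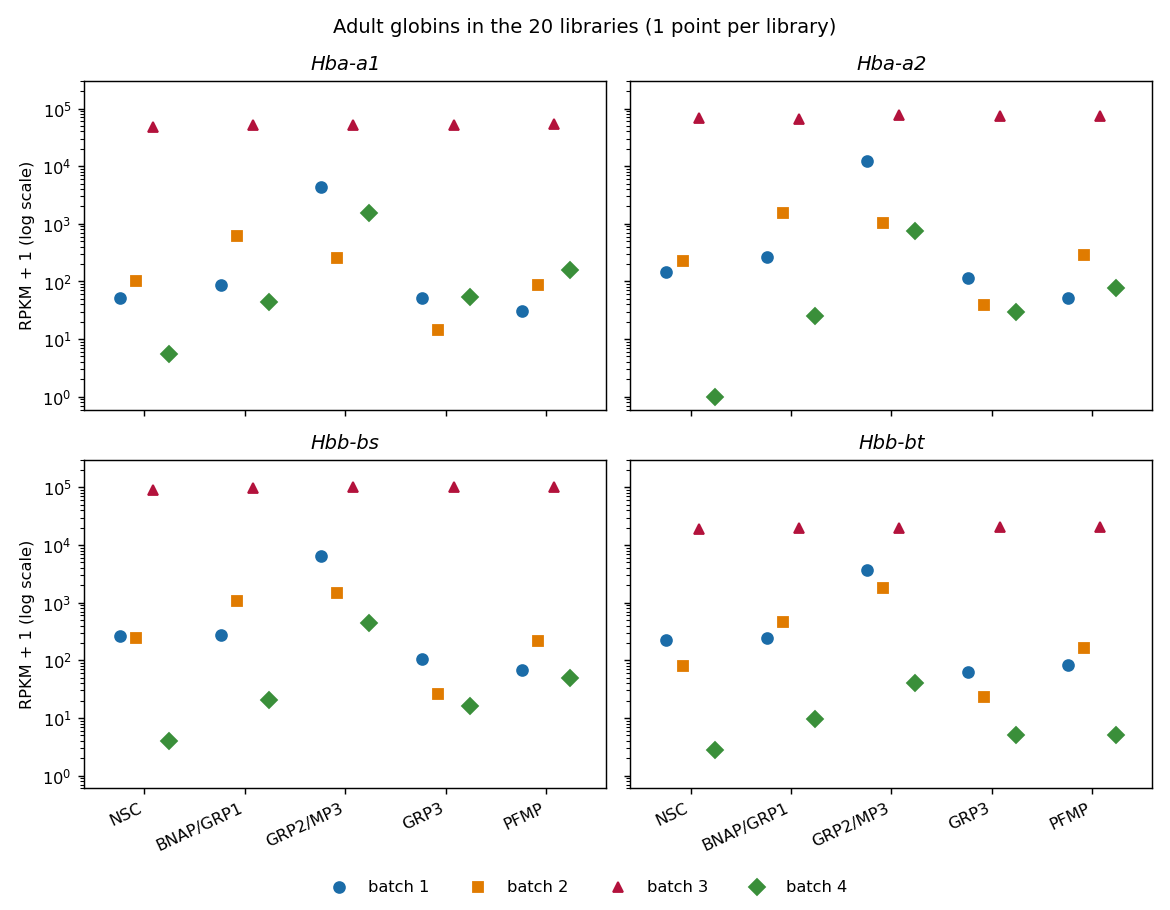
RPKM + 1 of the 4 adult globins in each of the 20 libraries, on a log axis, with populations along the x axis and batches by symbol. The 5 libraries of batch 3 lie together at the top of each panel, and GRP2/MP3 lies above NSC in every batch.

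Summed over the 4 adult globins, GRP2/MP3 ranked first in 4 of 4 batches, and in 3 of 4 as a share of each library's RPKM sum, where PFMP 3 (17.89%) lay just above GRP2/MP3 3 (17.87%). In batch 1 the sum was 26510 RPKM in GRP2/MP3, 862 in BNAP/GRP1, 692 in NSC, 330 in GRP3 and 229 in PFMP, so that GRP2/MP3 held 38.3 times the sum of NSC. In batch 2 it was 4552 in GRP2/MP3, 3719 in BNAP/GRP1, 753 in PFMP, 649 in NSC and 98.6 in GRP3, and the ratio of GRP2/MP3 to NSC was 7.01. Of the neighbours in this order, GRP2/MP3 and BNAP/GRP1 were close in batch 2 and far apart in batch 1. In batch 3 all 5 sums lay between 228239 in NSC and 252426 in GRP2/MP3, a ratio of 1.11. In batch 4 the sum was 2750 in GRP2/MP3, 286 in PFMP, 101 in GRP3, 96.0 in BNAP/GRP1 and 9.41 in NSC. The batch 4 ratio of GRP2/MP3 to NSC was 292, with the Hba-a2 of NSC listed at 0. BNAP/GRP1 lay above NSC in 4 of 4 batches, PFMP in 3 and GRP3 in 2, in part by little. In batches 1 to 4 the ratio to NSC was 1.25, 5.73, 1.04 and 10.2 in BNAP/GRP1. It was 0.331, 1.16, 1.10 and 30.4 in PFMP and 0.476, 0.152, 1.08 and 10.7 in GRP3. The batch 4 ratios rest on the NSC sum of 9.41. The 4 genes made up 15.9 to 17.9% of all RPKM of a library in batch 3, 0.0181 to 1.21% in batch 1, 0.0101 to 0.477% in batch 2 and 0.000915 to 0.219% in batch 4. In these pooled samples, fewer red cells and less globin RNA per cell cannot be told apart.

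Whether populations differ in red cell RNA was asked by comparing each progenitor with NSC and with each other. On the log2(RPKM + 1) scale, which understates the change of low genes, Hba-a1 was 3.99 higher in GRP2/MP3 than in NSC (SE 2.95), Hba-a2 4.57 (SE 3.12), Hbb-bs 3.52 (SE 3.19) and Hbb-bt 3.11 (SE 2.94). Each of the 4 genes lay above NSC in 4 of 4 batches, but the distance ran from 0.10 in batch 3 to 8.08 in another batch for Hba-a1, and from 0.11 to 4.46 for Hbb-bt. The mean over batches was 3.99 ± 3.86 (SD, n = 4) for Hba-a1 and 3.11 ± 2.01 (SD, n = 4) for Hbb-bt. None of the 4 passed limma's moderated test, with an adjusted p of 1 after the Benjamini-Hochberg method over 27614 genes. Of the 6 members that could be tested (1 RPKM or more in at least 4 libraries), 0 were called against NSC in BNAP/GRP1, GRP2/MP3, GRP3 or PFMP, and 0 had an unadjusted p under 0.05. Of all genes tested, 0.76%, 1.12%, 1.05% and 1.14% were called in these 4 comparisons. In the 6 comparisons of progenitors with each other 0 members were called, as were 0% of all genes, and in NSC against the mean of the progenitors 0 members and 1.98% of all genes. The p-values measure the spread between these libraries, whose litters are not labelled beyond the batch number.

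With the batch as a replicate block, the spread of the adult globins fell and 1 member was called higher in GRP2/MP3. This was Hbb-bt, at 3.11 (SE 0.80) with an adjusted p of 0.0371 in limma, while Hba-a1, Hba-a2 and Hbb-bs had adjusted p of 0.0724, 0.0555 and 0.0716. Of all genes, 0.174% were called higher in that fit. There 5 of the 6 members tested had an unadjusted limma p under 0.05 in GRP2/MP3 against NSC, beside 3019 of 27614 genes. The number was also 5 against GRP3 and PFMP (1773 and 1859 genes), and 3 against BNAP/GRP1 (1551 genes). It was 1 in BNAP/GRP1 against GRP3 and in NSC against the mean of the progenitors (2262 and 3437 genes). Without batch 3 and with no block, Hba-a1 was called higher in GRP2/MP3 than in NSC, at 5.29 (SE 1.26, adjusted p 0.0392 in limma), against 0.334% of all genes. With the block and without batch 3, a fit chosen after the data were seen, all 4 adult globins were called higher in GRP2/MP3 than in NSC, against 0.585% of all genes. Hba-a1 differed there by 5.29 (SE 1.22, limma adjusted p 0.0252) and Hba-a2 by 6.04 (SE 1.32, limma adjusted p 0.0181). For Hbb-bs the difference was 4.64 (SE 1.02, limma adjusted p 0.0184) and for Hbb-bt 4.11 (SE 0.74, limma adjusted p 0.00438). Alas2 differed by 1.79 (SE 0.75) and was not called, with a limma adjusted p of 0.340. In the same fit Hbb-bs and Hbb-bt were also higher in GRP2/MP3 than in GRP3, by 5.51 and 5.04 (limma adjusted p 0.0295 and 0.0256, 0.349% of all genes called higher). Against PFMP it was Hbb-bt alone, by 3.97 (limma adjusted p 0.0417, 0.184% of all genes called higher). These comparisons share the GRP2/MP3 libraries. With the block and batch 1, 2 or 4 left out instead, 0 members were called in GRP2/MP3 against NSC.

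**Figure D2:**
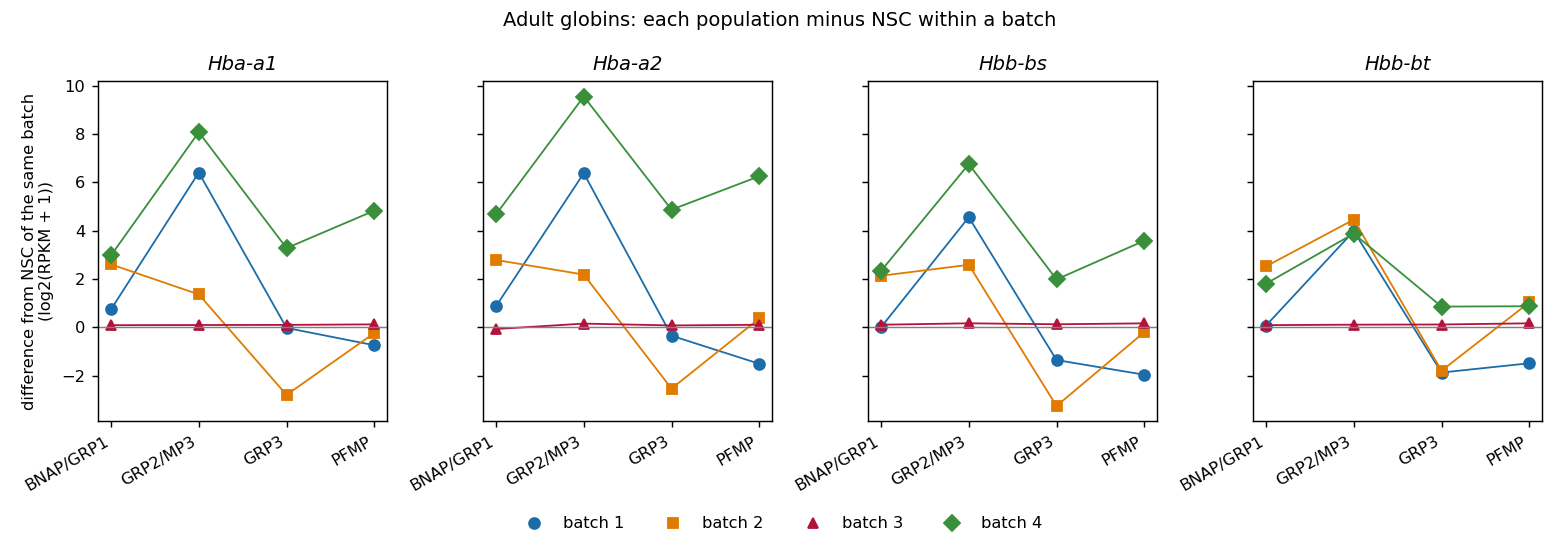
Difference of log2(RPKM + 1) between each progenitor and the NSC library of the same batch, for the 4 adult globins, with 1 symbol for each batch and a line joining the points of a batch. GRP2/MP3 lies above 0 in 4 of 4 batches for each gene, and the batch 3 points lie near 0 in every population.

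Markers of other cell types also differed between these libraries. Outside batch 3, the pericyte list (9 genes) summed to 520, 461 and 7349 RPKM in GRP2/MP3 of batches 1, 2 and 4, against 4.56, 15.9 and 115 in NSC and at most 206 in the other progenitors. In batches 1, 2 and 4 GRP2/MP3 had both the highest pericyte sum and the highest adult globin sum. In batch 3 the pericyte sum was 116 to 131 in all 5 populations, of which Anpep, which other cells also use, was 115 to 130, and the other 8 genes were under 1 RPKM. The microglia list (10 genes) summed outside batch 3 to 6303, 3675 and 714 in GRP2/MP3 of batches 1, 2 and 4 and to 6015, 1916 and 117 in BNAP/GRP1, against 33.7 to 69.6 in NSC, 23.5 to 34.7 in GRP3 and 18.1 to 123 in PFMP. In batch 1 the microglia sums of GRP2/MP3 and BNAP/GRP1 were thus close, while their globin sums were 26510 and 862. The microglia sum of batch 3 lay between 1635 and 1838, but the microglia-defining genes P2ry12, Cx3cr1, Tmem119 and Sall1 reached at most 1.49, 1.18, 1.10 and 0.385 RPKM there, and C1qa and C1qb made up most of the sum. The platelet list (10 genes) was highest in GRP2/MP3 1, at 2383 RPKM against 47.0 in NSC 1 and 97.9 in BNAP/GRP1 1, and that library also had the highest globin sum outside batch 3. The list reached 1603 to 1934 in batch 3, of which Pf4 was 1583 to 1917, while 4 to 7 of its genes were under 1 RPKM. The neutrophil list (10 genes) reached 188 to 224 in batch 3, with 3 to 5 genes under 1 RPKM. The part of these cells in the globin differences was not tested.

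**Figure D3:**
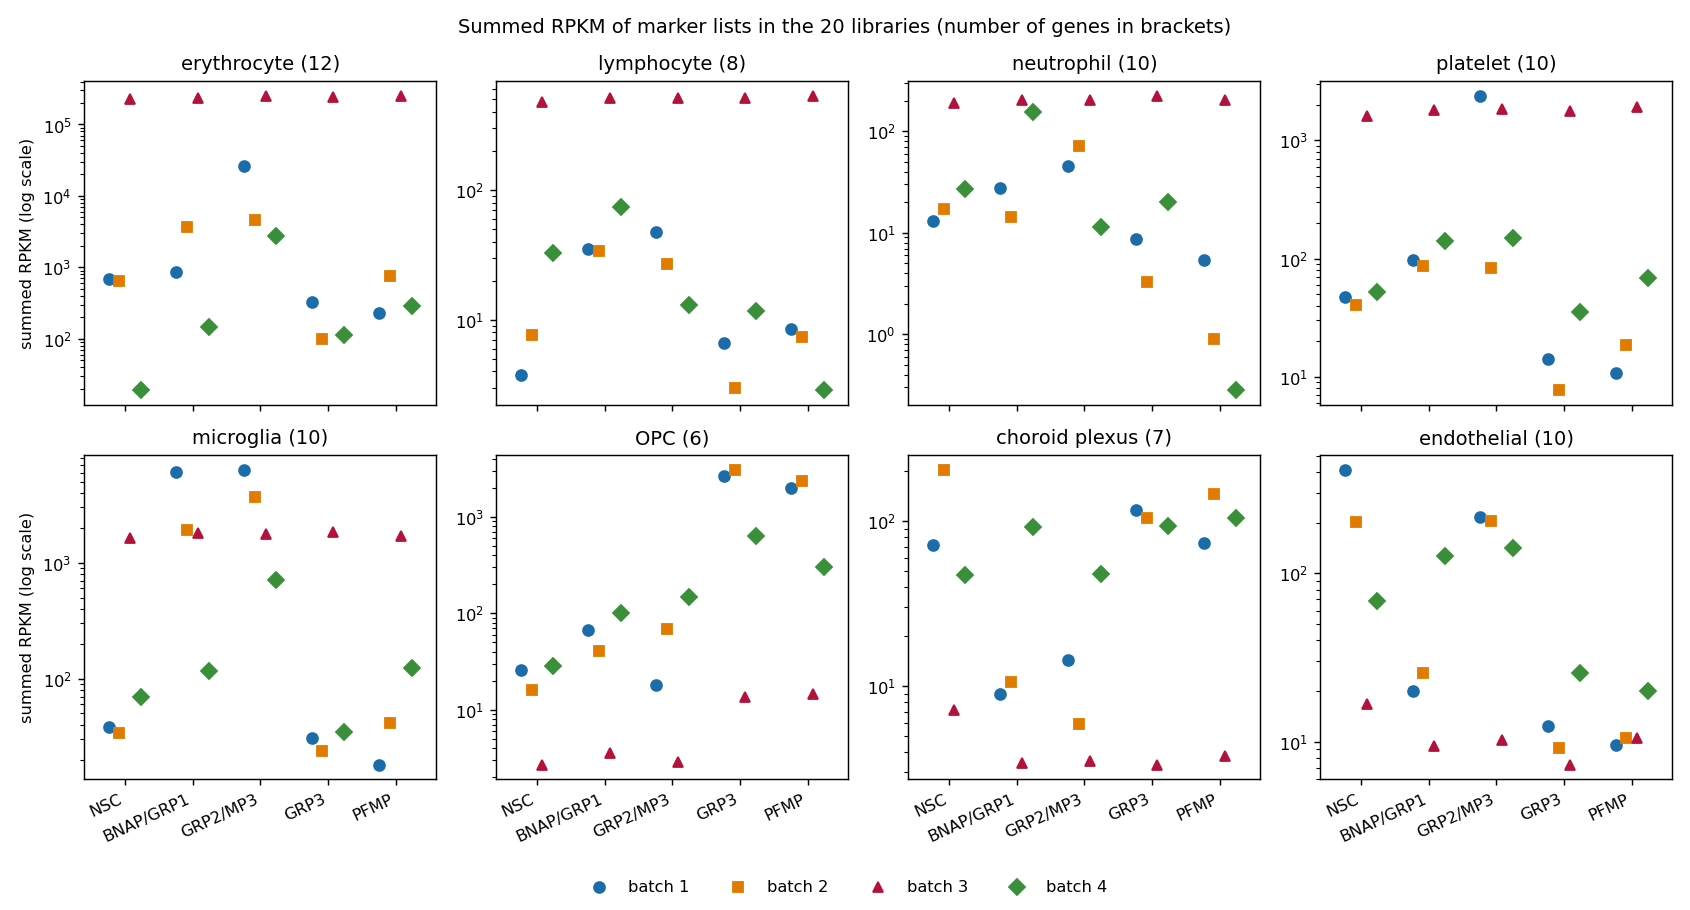
Summed RPKM of the marker lists of blood, vascular and neural cell types in each of the 20 libraries, on a log axis that differs between panels, with populations along the x axis and batches by symbol. In batch 3 the erythrocyte, lymphocyte and neutrophil lists are high and the oligodendrocyte precursor and choroid plexus lists low in all 5 populations. Nearly all of the erythrocyte sum there is the adult globins.

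The adult globins of batch 3 stood far above those of the other batches. In the fit of population and batch, Hbb-bs was 9.44 higher on the log2(RPKM + 1) scale in batch 3 than in the mean of the other batches (SE 0.74), Hba-a1 8.95 (SE 0.84), Hba-a2 8.89 (SE 0.92) and Hbb-bt 8.11 (SE 0.58). Alas2 differed by 6.56 (SE 0.45). These 5 of the 6 members tested were called higher, where 12.5% of all genes were, and the limma adjusted p was 6.63e-07 for Hba-a2 and lower for the others. Hbb-bh1, at -0.67 (SE 0.39), was not called, where 22.6% of all genes were called lower. Without PFMP 4 it was at -0.84 and called, with a limma adjusted p of 0.0251. The median of all genes shifted by -0.64 in this comparison, and relative to it the 5 genes stood 7.20 to 10.08 higher. Litter, sort and library preparation of batch 3 cannot be told apart. Each batch occurs once, so the p-values of batch comparisons measure the spread between libraries and not between batches. The fit also takes population differences as equal in all batches. For Hba-a1, GRP2/MP3 lay 0.10 above NSC in batch 3 and 8.08 above it in batch 4.

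Batch 4 was at the other end for the adult globins and above the rest for the embryonic member that could be tested. Against the other 3 batches, the difference was -7.01 for Hbb-bt (SE 0.58), -6.09 for Hbb-bs (SE 0.74), -5.85 for Hba-a2 (SE 0.92), -3.50 for Hba-a1 (SE 0.84) and -1.92 for Alas2 (SE 0.45). These 5 members were called lower, against 8.11% of all genes, and Hbb-bh1 was called higher at 1.96 (SE 0.39), against 43.3% of all genes. Since batch 3 weighs on these differences, batch 4 was also set against batches 1 and 2 alone. Hbb-bt then differed by -4.84 (SE 0.62, limma adjusted p 1.95e-05), Hbb-bs by -3.31 (SE 0.79, limma adjusted p 0.00305) and Hba-a2 by -3.25 (SE 0.97, limma adjusted p 0.0125), against 7.25% of all genes called lower. Without NSC 4 the Hba-a2 difference was -2.12 with a limma adjusted p of 0.0947, and without BNAP/GRP1 4 it was -2.99 with 0.0616. Hba-a1 differed by -0.58 (SE 0.89, limma adjusted p 0.614) and Alas2 by 0.30 (SE 0.48, limma adjusted p 0.621), and neither was called. Hbb-bh1 was higher by 1.95 (SE 0.41, limma adjusted p 0.00147), against 37.4% of all genes called higher and a median shift of 0.74. Relative to that shift Hba-a1 stood at -1.32, Alas2 at -0.44 and Hbb-bh1 at 1.21. Between batches 1 and 2, 0 members were called by limma and 0 had an unadjusted p under 0.05, with adult globin differences of 0.39 or less in size, and of all genes 0% were called and 257 had an unadjusted p under 0.05. Batch 1 and batch 2 were each called lower than the rest in 1 of the 6 members tested, Alas2, with a difference of -2.35 in batch 1 and -2.29 in batch 2, against 3.97% and 3.39% of all genes called lower. Batch 3, where Alas2 was 6.56 higher, weighs on these differences too. Between batches 1 and 2 Alas2 differed by -0.05.

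The ratios between adult globins differed between batches. Hba-a1 stood at 0.320 to 0.594 of Hba-a2 in batch 1, 0.252 to 0.444 in batch 2, 0.675 to 0.786 in batch 3 and 1.76 to 2.10 in the 4 libraries of batch 4 where Hba-a2 was above 0. All 5 libraries of batch 4, and no other library, held more Hba-a1 than Hba-a2 per length, and NSC 4, with Hba-a2 listed at 0, gives no ratio. Hbb-bs stood at 4.92 to 5.12 times Hbb-bt in batch 3, at 0.842 to 1.75 in batch 1, 0.826 to 3.05 in batch 2 and 1.74 to 11.8 in batch 4. The sum of the alpha pair lay within 0.993 to 1.07 of the sum of the beta pair in batch 3, a ratio that depends little on the split between the copies. It ranged from 0.393 to 1.66 in batch 1, from 0.393 to 1.41 in batch 2 and from 0.959 to 4.76 in batch 4. The reads shared between the copies, described above, can move the first and the second of these ratios.

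**Figure D4:**
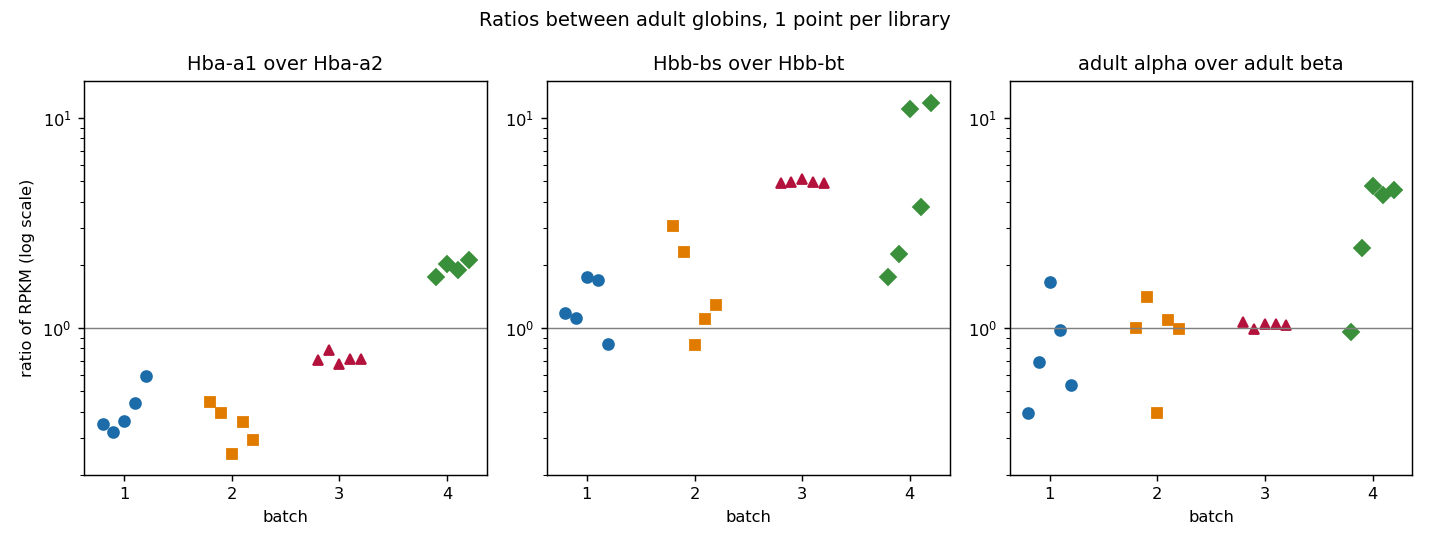
Ratios of RPKM within each library on log axes: Hba-a1 to Hba-a2, Hbb-bs to Hbb-bt, and summed alpha to summed beta adult globins. The libraries of a batch stand side by side, NSC at the left, then BNAP/GRP1, GRP2/MP3, GRP3 and, at the right, PFMP, and a line marks a ratio of 1. The 5 libraries of batch 3 lie within a narrow band in each panel, and the Hba-a1 to Hba-a2 ratio is above 1 only in batch 4.

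The 3 embryonic globins among the members were low in every library, and their highest RPKM values lay in batch 4. Hba-x, the zeta chain, was listed at 0 in all 10 libraries of batches 1 and 2, and in batch 3 it lay between 0.0403 in NSC and 0.132 in PFMP. Its batch 4 values were 1.87 in NSC, 0.613 in GRP2/MP3, 9.73 in BNAP/GRP1, 0 in PFMP and 2.15 in GRP3. Hbb-y, the embryonic epsilon-type chain, was listed at 0 in all 5 libraries of batch 3. The values in batch 4 were 1.70 in NSC, 0.742 in GRP2/MP3, 6.80 in BNAP/GRP1, 0 in PFMP and 0.780 in GRP3. Elsewhere it was above 0 in BNAP/GRP1 1 (0.0537), GRP3 1 (0.188) and GRP3 2 (0.139). Hbb-bh1, an embryonic beta-type chain, was at 15.4 in BNAP/GRP1 4, 5.58 in NSC 4, 3.30 in GRP3 4, 3.14 in GRP2/MP3 4 and 0 in PFMP 4. In batch 1 it was at 1.16 in NSC and 0.694 in GRP2/MP3, and in batch 2 at 0.0831 and 0.259, with 0 listed in the other populations of both batches. In batch 3 it ran from 0.0740 in GRP2/MP3 to 0.244 in PFMP. For all 3 genes BNAP/GRP1 4 held the highest value and PFMP 4 was listed at 0.

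These embryonic values rest on few reads. The low values of a gene in different libraries are whole multiples of a smallest step once scaled by relative depth, and each value above 0 lay within 0.1 of such a multiple. Taking 1 step as 1 read, Hba-x in batch 4 came to 6 to 20 reads in a library and 49 in all over 4 libraries, Hbb-y to 36 in all and Hbb-bh1 to 109. In batch 3 Hba-x came to 16 over 5 libraries and Hbb-bh1 to 27. The true count may be a whole multiple of these, since the gene lengths were not stated. In batch 4 the genes near them were also raised: the median gene lay at 8.30 RPKM in BNAP/GRP1 4, 2.02 in GRP3 4, 1.61 in NSC 4 and 0.977 in GRP2/MP3 4, and at 0.00791 in PFMP 4, where all 3 embryonic genes were listed at 0. Ranked within its library, Hba-x stood at a median percentile of 52.4 in batch 4 and 60.2 in batch 3. Percentiles depend on how many genes are above 0, 20116 to 22578 in batch 3 and 24102 to 39689 in batch 4. In NSC 3, 1 read of Hba-x stood at percentile 53.0, so ranks cannot be compared directly between these batches. The median percentile of Hbb-bh1 was 71.3 in batch 4 and 61.4 in batch 3, and that of Hbb-y 39.9 and 27.5. The part of this raised low end in the embryonic values was not tested.

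The embryonic members were also set against the adult genes, as a share of the summed RPKM of the 3 embryonic members and the 4 adult globins. Other globin genes, Hbb-bh0 described below among them, are not part of this share. The embryonic members made up 7.19e-05 to 0.000149% in batch 3, 0 to 0.167% in batch 1 and 0 to 0.141% in batch 2. In batch 4 the share was 0% in PFMP, 0.163% in GRP2/MP3, 5.82% in GRP3, 24.9% in BNAP/GRP1 and 49.3% in NSC. Apart from PFMP, the order within batch 4 is the reverse of the order of the adult sum, and the highest share belongs to the library with an adult sum of only 9.41 RPKM. Hbb-bh1 was the only embryonic member that passed the filter, and its differences between populations were not called, with -0.22 (SE 0.81) in GRP2/MP3 against NSC.

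**Figure D5:**
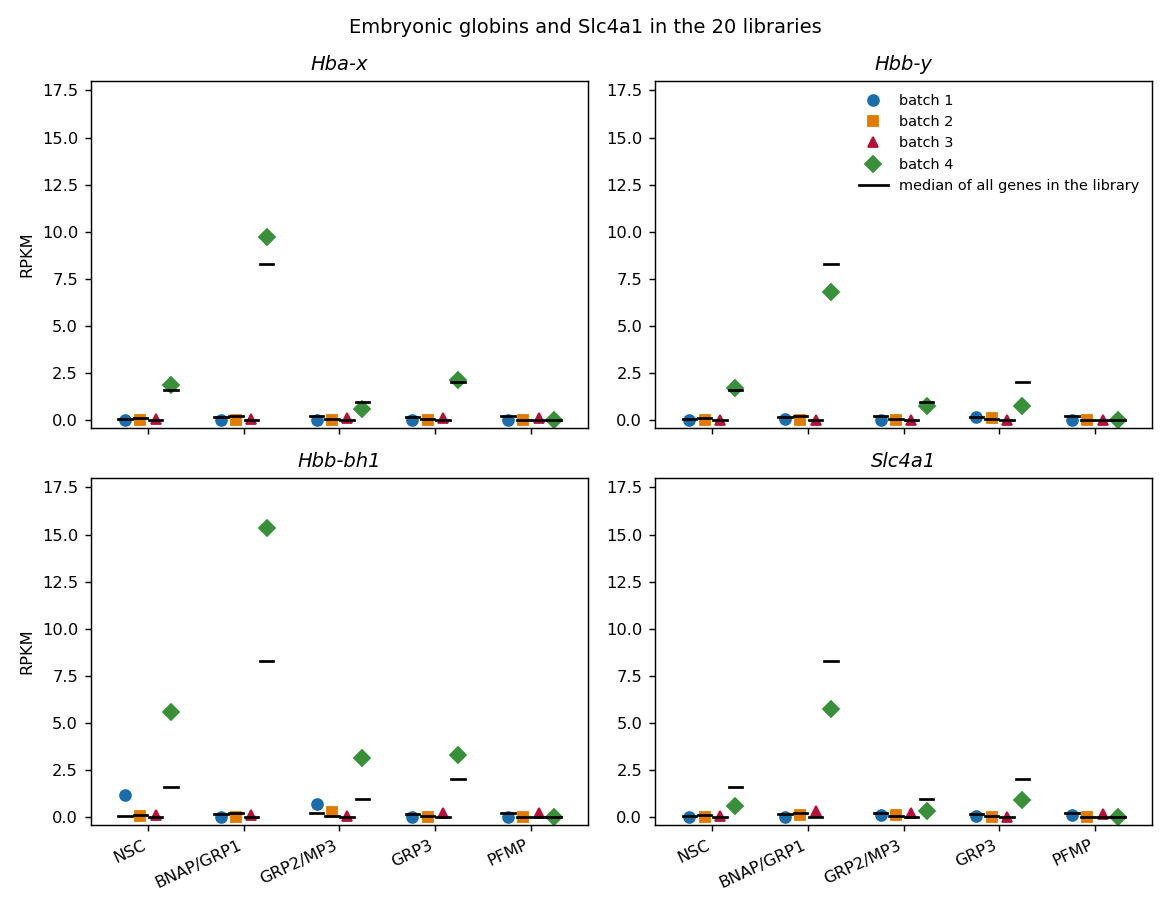
RPKM of Hba-x, Hbb-y, Hbb-bh1 and Slc4a1 in each of the 20 libraries, with populations along the x axis, batches by symbol and a short bar at the median of all genes in the library. The highest values of all 4 genes lie in BNAP/GRP1 4, where the median gene is also highest, and all 4 are listed at 0 in PFMP 4.

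Alas2, the erythroid enzyme of heme synthesis, was highest in batch 3 like the adult globins. Between batch 4 and batches 1 and 2, where 3 of the adult globins were called lower, Alas2 was not called (a difference of 0.30, SE 0.48, limma adjusted p 0.621). The median of all genes shifted by 0.74 there. Relative to that shift Alas2 stood at -0.44, and the adult globins at -1.32 (Hba-a1) to -5.58 (Hbb-bt). In batch 1, Alas2 stood at 2.22 RPKM in NSC, 4.40 in GRP2/MP3, 0.548 in BNAP/GRP1, 0.422 in PFMP and 0.140 in GRP3. In batch 2 it was at 1.07 in NSC, 17.0 in GRP2/MP3, 0 in BNAP/GRP1, 0.0483 in PFMP and 0.309 in GRP3. GRP2/MP3 was the highest library in both, as it was for Hbb-bs and Hbb-bt. In batch 3, Alas2 reached 201 in NSC, 227 in GRP2/MP3, 213 in BNAP/GRP1, 227 in PFMP and 219 in GRP3. In batch 4 it lay at 0.757 in NSC, 3.96 in GRP2/MP3, 5.36 in BNAP/GRP1, 0.141 in PFMP and 1.14 in GRP3. Its percentile among the genes of these libraries was 26.4, 74.3, 30.7, 61.0 and 27.8 in that order. Per 1000 RPKM of adult globin, Alas2 was at 0.880 to 0.903 RPKM in the 5 libraries of batch 3, at 0.166 to 3.21 in batch 1, 0 to 3.74 in batch 2 and 0.494 to 80.5 in batch 4. The 80.5 belongs to NSC 4, where Alas2 lay at only 0.757 RPKM.

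Slc4a1, the band 3 anion exchanger, had its highest RPKM values in batch 4 and stayed low in batch 3. In batch 3, where the globins were highest, Slc4a1 lay at 0.0847 RPKM in NSC, 0.252 in GRP2/MP3, 0.315 in BNAP/GRP1, 0.152 in PFMP and 0.0155 in GRP3. In batch 1 it lay between 0.0180 and 0.121 and in batch 2 between 0 and 0.137. In batch 4 it was at 0.609 in NSC, 0.332 in GRP2/MP3, 5.72 in BNAP/GRP1, 0 in PFMP and 0.893 in GRP3. Ranked within its library, Slc4a1 stood at a median percentile of 44.5, 46.5, 61.0 and 23.3 in batches 1 to 4. These percentiles depend on how many genes are listed at 0. Genes above 0 numbered 20116 to 22578 in batch 3 and 24102 to 39689 in batch 4. In GRP3 3, a value of 0.0155 RPKM already stood at percentile 56.6. The ranks therefore do not show that Slc4a1 followed the adult globins. At no point did it reach 1 RPKM in 4 libraries, so it was not tested. Klf1, an erythroid transcription factor, was also low in batch 3, at 0.446 RPKM or less. Of the 12 erythrocyte markers, 6 to 7 were under 1 RPKM in the libraries of batch 3. The list summed there to between 228441 and 252654 RPKM. Nearly all of this was the adult globins, at 228239 to 252426, so the sum is no separate measure of red cell RNA.

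The other genes of the red cell program were followed in 5 lists, 59 genes found in the table and 44 tested. Against NSC, 0 of the 44 were called in each of the 4 progenitors. In GRP2/MP3 against NSC the list medians lay between -0.52 for heme synthesis and 0.87 for erythroid transcription factors, beside -0.08 for all genes. In batch 3 against the other batches 12 rose and 10 fell, beside 12.5% and 22.6% of all genes. Among the other globin genes, the theta globins Hbq1a (2.82 to 6.88 RPKM in batch 3) and Hbq1b (1.51 to 4.83) rose, and neuroglobin (Ngb) and cytoglobin (Cygb), which belong to neural and connective tissue cells, fell. Of 8 heme synthesis enzymes, Alas1, the form used outside red cells, rose by 3.16 (SE 0.42) and Fech, the last enzyme of the pathway, by 1.48 (SE 0.35). Of 11 membrane and skeleton genes, Gypc (glycophorin C) rose by 1.61 (SE 0.38), and Sptb, Dmtn, Tmod1 and Add2 fell.

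Of 6 erythroid transcription factors, Lyl1 rose by 3.31 (SE 0.42) and Lmo2 by 1.45 (SE 0.53) in batch 3, both also used in other blood lineages. Gata1, the master factor of red cells, was at 1.25 RPKM or less in every library of batch 3. Of 14 enzymes, iron and reticulocyte genes, Tfrc (transferrin receptor), Slc25a37 (mitoferrin), Cat (catalase), Fam46c and Ube2l6 rose, and Car2 (carbonic anhydrase), Bpgm, which makes the hemoglobin regulator bisphosphoglycerate, Prdx2 and Tspan33 fell. Cat stood at 66.8 to 72.7 RPKM in batch 3 and Ube2l6 at 36.2 to 51.0. In batch 4 against batches 1 and 2, 14 of the 44 rose and 4 fell, beside 37.4% and 7.25% of all genes. Hbb-bh0, an embryonic-cluster beta-type gene, reached 129 RPKM in batch 4 and was listed at 0 in all 15 other libraries. Myoglobin (Mb), the oxygen store of muscle, was 2.63 higher (SE 0.59) in NSC than in the mean of the progenitors (limma adjusted p 0.0164), where 1 of the 44 genes was called, beside 1.98% of all genes. With the replicate block it was called lower than NSC in GRP2/MP3 by -2.84, in GRP3 by -2.78 and in PFMP by -2.87 (limma adjusted p 0.00513, 0.00712 and 0.00507), beside 2.91%, 2.33% and 2.61% of all genes called lower. Neuroglobin was called in GRP2/MP3 in that fit, at -2.90 (limma adjusted p 0.00903).

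Genes with a pattern like the adult globins were found by the correlation of log2(RPKM + 1) with the log2 of the adult globin sum over the 20 libraries, which share batch and depth. Of 27614 genes, 32 had an r above 0.9. The highest were Rhoc (0.941), Lyz2 (0.933), Blvrb (0.929), Apobec1 (0.923), Ifnar2, H2-Ab1 and Gm10116 (each 0.922), Cxcl2 and H2-K1 (each 0.920) and Fth1 (0.919). Lyz2, the lysozyme of macrophages and neutrophils, stood at 20268 to 22692 RPKM in batch 3 and at 1200 or less elsewhere. Blvrb, the biliverdin reductase abundant in red cells, was at 354 to 411 in batch 3. Over the 15 libraries outside batch 3, r was 0.766 for Rhoc, 0.746 for Lyz2 and 0.673 for Fth1, the ferritin heavy chain. With the mean of each batch taken out, r fell to 0.706 for Rhoc, 0.737 for Lyz2 and 0.544 for Fth1. The genes with the highest r were then Cd83 (0.869), Emp3 (0.858), Cdkn3 (0.848), Adap2 (0.848) and Ltc4s (0.836). Cdkn3, a cell cycle phosphatase, had an r of -0.178 over all libraries. Alas2 had an r of 0.871 over all libraries, 0.379 over the 15 outside batch 3 and 0.502 with the batch means out, and Hbb-bh1 of -0.425 and -0.0763.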

How the data were processed

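The values deposited by the authors are RPKM of 45705 genes in 20 libraries, 4 for each of 5 populations. The authors amplified polyA RNA, sequenced it for 75 cycles, aligned the reads to GRCm38 with STAR 2.6.1 after cutadapt 3.4, quantified them with Salmon 1.9.0, and used DESeq2 1.26.0 for their own tests. Read totals and gene lengths are not given in the sources used here, so no counting interval can be given for a value.

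The members are set by gene name and by no cut on a value, but they and the gene lists were chosen with earlier results of these data known. Genes reaching 1 RPKM in 4 libraries or more were tested (27614, 6 members among them) with limma 3.58.1 in R 4.3.3 on log2(RPKM + 1), with a trended prior and Benjamini-Hochberg adjustment over all genes tested, at a threshold of 0.05. The model held 1 mean for each population. For batches, it held population and batch. The batch numbers pair the libraries: after subtraction of population means, libraries of the same batch had a median r of 0.337, 0.262, 0.769 and 0.581 in batches 1 to 4 (lowest 0.034), and libraries of different batches of -0.254. Named genes are the members, the listed genes past the threshold or with the highest mean, and the genes most alike in pattern. Gene positions and transcripts are those of GENCODE vM21, and promoters those of RefSeq. Correlations and plots used Python 3.11.15 with pandas 2.3.3, numpy 2.4.6 and matplotlib 3.10.9. The fits were tested on simulated data. Alternatives were another pseudocount, no filter, a stricter filter, 3 other scalings, a prior without a trend, the replicate block, only the compared populations, and each library or batch left out. Batch 4 against batches 1 and 2, batch 1 against batch 2, and the block with a batch left out were added after the data were seen. The 26 unnamed columns of the table hold no values.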

Additional observations from a re-analysis of the deposited data

Results flagged for a closer look

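Among 77 groups of 4 or 5 libraries, each examined for a single library apart from the rest, 21 held such a library on the log2(RPKM + 1) scale. A chance rate of about 1 in 20 groups holds only for normally distributed values without ties. Where all libraries but 1 were listed at 0, that library is flagged whatever its value, as with 1 read of Hbb-y in GRP3 2. Groups of the same genes and libraries are also not independent, so the 21 cannot be read against that rate.

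Within a population, the batch 4 library stood above the other 3 for the embryonic globins and Slc4a1. For Hba-x these were NSC 4 (1.87 RPKM), BNAP/GRP1 4 (9.73) and GRP3 4 (2.15). For Hbb-y they were NSC 4 (1.70), BNAP/GRP1 4 (6.80) and GRP2/MP3 4 (0.742), and for Hbb-bh1 BNAP/GRP1 4 (15.4) and GRP3 4 (3.30). For Slc4a1 they were NSC 4 (0.609), BNAP/GRP1 4 (5.72) and GRP3 4 (0.893). The batch 3 library stood above the other 3 for Hba-a1 in GRP3 (52339 RPKM), for Alas2 in NSC (200.9), GRP3 (219) and PFMP (227), and for Hba-x (0.132) and Hbb-bh1 (0.244) in PFMP, where the other 3 were listed at 0.

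Within a batch, Hba-a1 was highest in GRP2/MP3 1 (4373 RPKM) and lowest in NSC 3 (48715). In batch 2, Hbb-y was above 0 only in GRP3 (0.139), and Alas2 was highest in GRP2/MP3 (17.0).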

How the results depend on the processing

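The 5 members called higher in batch 3 were called under every alternative tried, 28 settings in all. Against NSC in GRP2/MP3, the number of members called was 0, and it became 1 with the replicate block (Hbb-bt), 1 without batch 3 (Hba-a1) and 4 with the block and without batch 3. The same last fit called 2 members against GRP3 and 1 against PFMP, where none was called otherwise, and the block changed no other call of a member between populations. Lower in batch 1 were 1 member, 2 under the stricter filter (5 tested) and 2 under scaling by the RPKM sum, with 1 to 2 as single libraries were left out (2 without NSC 4, GRP2/MP3 1 or GRP2/MP3 3). The corresponding numbers for batch 2 were 1, then 2 and 2, and 1 to 2 (2 without NSC 4, BNAP/GRP1 2, BNAP/GRP1 4, GRP2/MP3 3, PFMP 1 or PFMP 4). Against batches 1 and 2, 4 members were called in batch 4, beside 44.6% of all genes. Without the filter, which tests 3 more, 7 of 9 members were called. For that fit, and for the alternatives of batches 1 and 2 above, the shares of all genes are not given. No reading is therefore put on these counts. Directions of uncalled members turned: Hbb-bh1 in GRP2/MP3 against NSC ran from -0.63 to 0.35 (above 0 without NSC 4 or GRP2/MP3 3) and Hba-a1 in batch 4 against batches 1 and 2 from -1.12 to 0.25 (above 0 without NSC 4) as single libraries were left out, while Alas2 in the latter comparison ran from -0.14 (without BNAP/GRP1 4) to 0.59 and was -0.60 under quantile normalization. The cause of these changes was not tested. The median adult globin sum of batch 3 was 245971 RPKM, and 175630 when libraries were scaled to the same RPKM sum. Read totals were not given, so depth is known only relative to BNAP/GRP1 1, and values listed at 0 do not show absence.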
